A study of Homo sapiens with 4 samples.

Results

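The genes described here are 9 genes of mature B cells that plasma cells normally switch off: the transcription factors PAX5, SPIB, BCL6 and BCL11A, the B cell receptor chain CD79B, the co-receptors CD22 and CR2 (CD21), and the surface proteins MS4A1 (CD20) and FCER2 (CD23). They were chosen by name as a group of known B cell genes, with earlier results of these data known. They were read by 66 of the 15246 probes of a two-colour spotted array, each probe having been given to a gene through its annotated gene symbol. After the probes of a gene were averaged, all 9 genes had a value on each of the 4 arrays and stood among 7713 features (named genes or unnamed probes) with a value on at least 3 arrays.

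The cells were EJM, an established human cell line from multiple myeloma, a cancer of antibody-secreting plasma cells. Induced EJM cells had received 20 µg/ml doxycycline for 1, 2, 3 or 4 days at 37 °C, which switches on a super-repressor form of IκBα, and their cDNA carried Cy5. Uninduced EJM cells carrying the same tetracycline-repressor-controlled construct were the control, and their cDNA carried Cy3. Each day had 1 array, there was no dye swap, and doxycycline itself was present in the induced cells alone. The sources used here do not say whether the line was a single clone or whether all arrays shared a control RNA.

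PAX5 holds a B cell in its identity: it activates B cell surface and receptor genes and represses genes of other fates. When a B cell becomes a plasma cell, the repressor PRDM1 (Blimp-1) and the secretory regulator XBP1 come up, and PAX5 and much of its programme are shut down. NF-κB, the factor that IκBα holds in the cytoplasm, acts in B cell survival and activation and is active in many myelomas.

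Each value below is the deposited log ratio of an array, read as log2 of Cy5 over Cy3, so a value above 0 means more signal in induced cells. The table states neither the direction nor the base of the ratio. The direction was taken from the dyes, and the opposite one would turn every sign. Base 10 would put the largest value, 7.255, beyond a 16-bit scanner, whereas a natural log cannot be told apart from base 2, so folds depend on that choice. A ratio holds no level: whether EJM cells express a given B cell gene at all cannot be read from these values. Over probes, the SD of the ratio was 0.345 and 0.380 on the late arrays (days 3 and 4) and 0.517 and 0.569 on the early arrays (days 1 and 2). The early arrays also had more missing values, and the ratios of days 3 and 4 correlated with each other over probes (Pearson r = 0.566) more than those of days 1 and 2 did (r = 0.316).

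RefSeq promoters (GRCh38.p14) were at hand for 7 of the 9 genes. The 4 genes with a single listed start are shown, each of which lay below 0 on day 1. Each run is the 250 bases before the start, 5′ to 3′ on the strand of the gene. CR2 lies on the plus strand at chr1:207454078-207454327, PAX5 on the minus strand at chr9:37034269-37034518, SPIB on the plus strand at chr19:50418688-50418937 and CD22 on the plus strand at chr19:35328937-35329186. Capitals mark matches, on either strand, to the PU box read by SPIB and its relative PU.1 (GAGGAA), to an E box (CAGGTG) or to the κB consensus bound by NF-κB.
CR2: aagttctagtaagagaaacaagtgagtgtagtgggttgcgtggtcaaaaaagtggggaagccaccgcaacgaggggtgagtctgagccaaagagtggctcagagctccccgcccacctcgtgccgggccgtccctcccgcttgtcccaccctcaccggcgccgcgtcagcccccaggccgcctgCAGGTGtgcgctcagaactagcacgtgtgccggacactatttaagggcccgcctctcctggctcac
PAX5: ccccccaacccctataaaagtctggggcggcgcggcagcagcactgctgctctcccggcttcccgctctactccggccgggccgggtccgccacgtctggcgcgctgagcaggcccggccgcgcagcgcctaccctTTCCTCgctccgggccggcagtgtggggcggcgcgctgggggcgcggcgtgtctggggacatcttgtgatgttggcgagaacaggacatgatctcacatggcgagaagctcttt
SPIB: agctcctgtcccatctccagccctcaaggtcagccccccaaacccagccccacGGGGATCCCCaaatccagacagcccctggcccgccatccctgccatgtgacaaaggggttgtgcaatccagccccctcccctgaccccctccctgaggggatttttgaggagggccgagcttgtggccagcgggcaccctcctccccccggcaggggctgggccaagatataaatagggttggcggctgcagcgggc
CD22: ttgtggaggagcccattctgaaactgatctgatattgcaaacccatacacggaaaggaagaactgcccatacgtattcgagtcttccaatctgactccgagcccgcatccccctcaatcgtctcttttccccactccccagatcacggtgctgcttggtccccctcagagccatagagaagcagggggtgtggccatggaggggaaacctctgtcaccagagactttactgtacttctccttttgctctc
The PAX5 window held 1 PU box match, the CR2 window 1 E box match, the SPIB window 1 κB match, beginning 197 bases before the start, and the CD22 window none of these. Over all 35116 promoter windows of this length, 23.6% held a PU box match, 17.5% an E box match and 9.96% a κB match. A match of letters is a description and not evidence of binding.

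Most of the B cell genes had slightly lower signal in induced than in uninduced cells on the early days and differed little from 0 on the late days, while CD79B was higher in induced cells on every day. The median of the 9 genes on days 1 to 4 was -0.28, -0.27, 0.13 and 0.050. Over all features the median was -0.063, -0.081, 0.006 and 0.002. On day 1, 7 genes lay below 0 and on day 2, 6 did, whereas 2 lay below 0 on day 3 and 2 on day 4. Of all features with a value, 56.0%, 58.2%, 49.0% and 49.8% lay below 0 on days 1 to 4.

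None of the 9 genes passed the test in either comparison. The first comparison set the mean log2 ratio of the 4 arrays against 0 (limma, two-sided, Benjamini-Hochberg adjustment over all 7713 features, threshold 0.05). It called 26 features, 0.337% of those tested, and 0 of the 9 genes. At an unadjusted p under 0.05 it held 1 of the 9, CD79B, against 12.5% of all features. The second comparison set the mean of days 3 and 4 against that of days 1 and 2. It called 5 features (0.0648%) and 0 of the 9 genes, with 2 of the 9, BCL11A and CR2, at an unadjusted p under 0.05 against 20.0% of all features. Each array is a single day, and separate cultures are not stated, so these p-values measure only the spread between arrays, and days in culture cannot be told apart from days of induction. An exact permutation of 2 arrays against 2 could not go below p = 0.333.

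**Figure D1:**
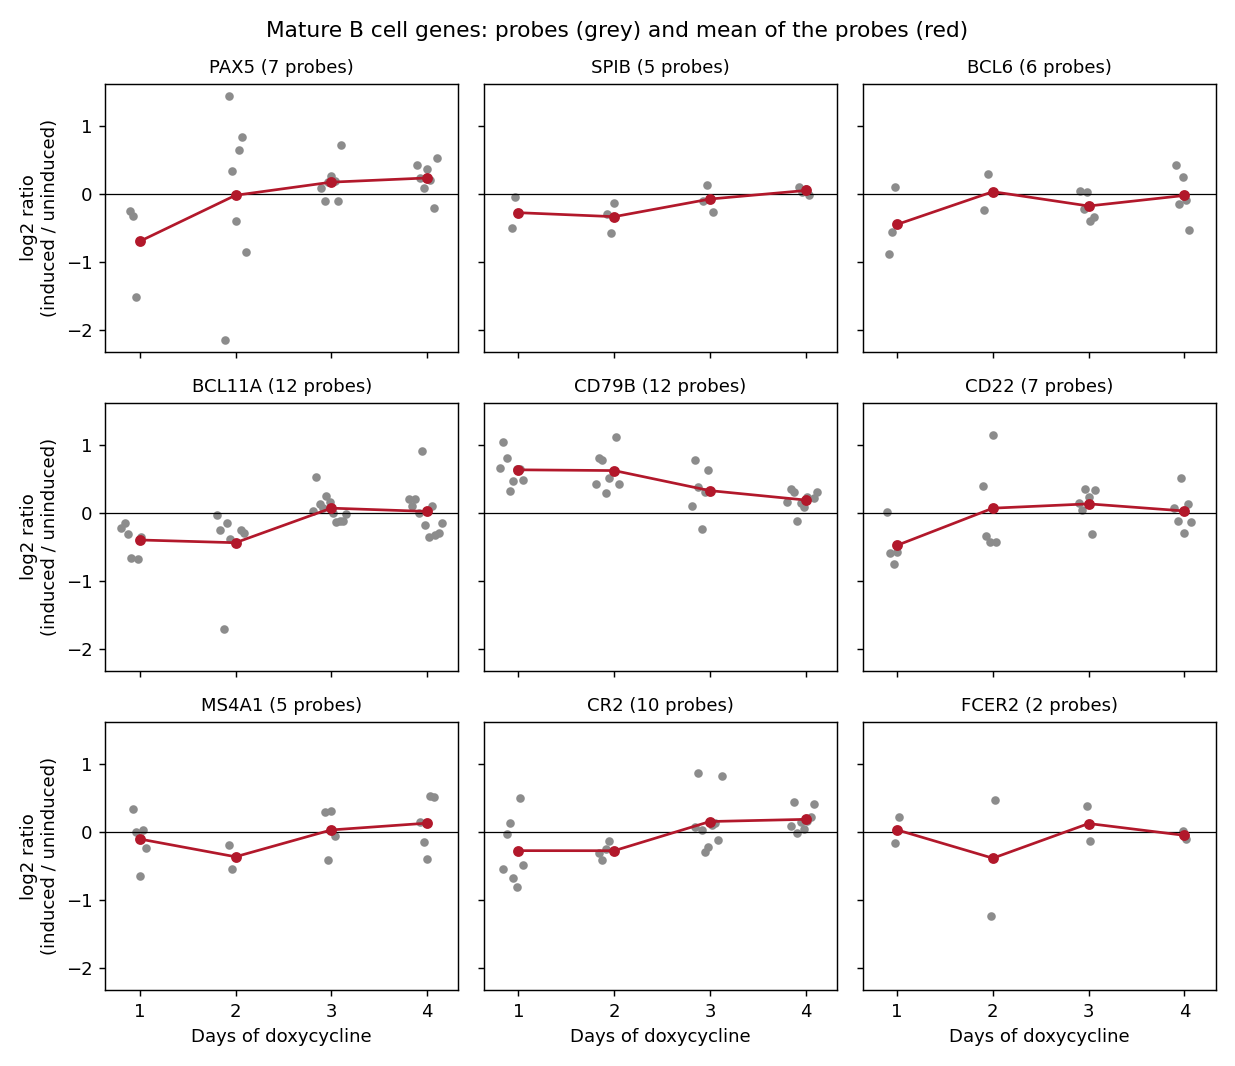
The log2 ratio (induced over uninduced, y axis) on days 1 to 4 of doxycycline (x axis), with each probe as a grey point and the mean of the probes as a red line. CD79B lies above 0 on every day and is lower on days 3 and 4, while PAX5, BCL11A and CR2 lie below 0 on days 1 and 2 and above it on days 3 and 4.

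Among the transcription factors, PAX5, which commits and keeps cells to the B lineage, had the widest probe spread on days 1 and 2. Its mean over probes on days 1 to 4 was -0.70, -0.020, 0.17 and 0.23. The late values both lay above the early ones, and the gene averaged 0.20 on days 3 and 4 and -0.36 on days 1 and 2. Late minus early was 0.56 ± 0.26 log2 (SE; limma adjusted p = 0.293). Without the day 2 array it was 0.90 and passed (limma adjusted p = 0.0152), as did 1301 of the 7250 features tested in that setting. The early days were then the day 1 array alone, taken to vary like days 3 and 4, from which the whole residual came. Over the settings that leave out an array it ran from 0.22 to 0.90. All 7 PAX5 probes had values on at least 3 arrays. On day 2 they ran from -2.142 to 1.441, with an SD over probes of 1.21, and on days 3 and 4 the SDs were 0.279 and 0.245.

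The PAX5 probes did not move alike. Probe 31153_1 read -0.254, -2.142, 0.081 and 0.426 on days 1 to 4, and probe 35316_1 read -0.697, -0.398, 0.261 and 0.370. In both, the late values lay above the early ones. Probe 34096_1 read -1.516, 0.337, 0.175 and 0.091, and probe 32923_1 read -0.321, 1.441, -0.109 and 0.227. These 2 were low on day 1 and highest on day 2. The other 3 had no day 1 value: on days 2 to 4, probe 30801_1 read 0.835, -0.106 and -0.210, probe 30371_1 read 0.642, 0.188 and 0.206, and probe 31928_1 read -0.857, 0.716 and 0.529. Late minus early was therefore above 0 for 4 of the 7 probes and below 0 for 3. It was above 0 for 54.7% of all probes with early and late values.

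SPIB, an Ets-family factor that supports B cell receptor signalling, stayed within a narrow range. It read -0.28, -0.33, -0.0755 and 0.050 on days 1 to 4, so both late values lay above both early values. The late minus early difference of SPIB was 0.29 ± 0.17 (SE; limma adjusted p = 0.369). Of its 5 probes 2 had values on all 4 arrays: 19286_1 read -0.047, -0.570, 0.129 and 0.032, and 16678_1 read -0.505, -0.301, -0.106 and 0.100. Both were below 0 early and nearer to or above 0 late. Probe 19263_1 had no day 1 value and read -0.133, -0.056 and 0.079 on days 2 to 4, while 30237_1 had late values alone (-0.269 and -0.010) and 24340_1 had no value.

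BCL6, the repressor that drives the germinal centre programme and restrains PRDM1, showed no order between early and late days. It read -0.45, 0.0325, -0.18 and -0.023 on days 1 to 4. The BCL6 difference was 0.11 ± 0.23 (SE; limma adjusted p = 0.801), with a 95% interval from -0.45 to 0.67, and without the day 1 array it was -0.13. Probe 32487_1 read -0.565, 0.299, -0.223 and -0.154, whereas probe 19268_1 read -0.877, -0.234, 0.045 and 0.423. Probe 26535_1 read 0.096, 0.021 and 0.241 on days 1, 3 and 4. The 2 probes with late values alone were below 0 (28542_1 at -0.396 and -0.090, 33451_1 at -0.336 and -0.536), and they entered the day 3 and day 4 averages with no early counterpart. With the probes measured on all 4 arrays alone, late minus early was 0.37.

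BCL11A, a zinc-finger repressor needed early in B cell development, had low early ratios and late ratios near 0. It read -0.395, -0.44, 0.072 and 0.024 on days 1 to 4, so both early values lay below both late values. The days differed by 0.46 ± 0.17 (SE; unadjusted p = 0.0355, limma adjusted p = 0.224), with a 95% interval from 0.045 to 0.88. Of 12 probes, 9 had early and late values and in 9 of 9 the late mean was higher, against 54.7% of all 11862 such probes. Probes of a gene share the same RNA on the same arrays and are not replicates of the comparison.

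Of the BCL11A probes, 4 had values on every array. In each of them both late values lay above both early ones, as in 29.0% of all 9242 such probes. Probe 30836_1 read -0.310, -1.702, 0.136 and 0.209 on days 1 to 4. Probe 34045_1 read -0.661, -0.147, 0.069 and 0.005, probe 30550_1 read -0.145, -0.250, 0.527 and 0.107, and probe 19317_1 read -0.226, -0.022, 0.031 and 0.200. The day 2 value of 30836_1 was the lowest of the gene on any array. Another 5 probes had 3 values, among them 19251_1 at -0.385, 0.244 and 0.917 on days 2 to 4 and 36802_1 at -0.297, -0.115 and -0.315, which was below 0 throughout. Of these, 24577_1 (-0.681, 0.156 and -0.168) and 30537_1 (-0.347, -0.001 and -0.358) lacked day 2, and 34074_1 (-0.245, -0.129 and 0.102) lacked day 1. Probes 36297_1 and 35948_1 had late values alone, all below 0, and 25082_1 had none.

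CD79B, the signalling chain that pairs with CD79A beneath surface immunoglobulin, was the exception among the 9. It read 0.64, 0.62, 0.33 and 0.19 on days 1 to 4, above 0 on all 4 arrays, as were 11.7% of the 6427 features with 4 values. The mean was 0.45 ± 0.22 (SD, 4 arrays), 1.36-fold higher in induced cells, with an unadjusted p of 0.0101 and a limma adjusted p of 0.254. Both late values lay below both early ones, the reverse of PAX5, SPIB, BCL11A, CR2 and MS4A1. CD79B had a late minus early difference of -0.37 ± 0.17 (SE; limma adjusted p = 0.291). Scaling every array to a common spread gave -0.20.

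The CD79B probes had one direction. All 7 with at least 3 values had a mean above 0, from 0.064 to 0.75, and in 7 of 7 with early and late values the late mean was lower. Over all 11862 probes with early and late values, the late mean was higher in 54.7%. In all 5 CD79B probes with values on every array both late values lay below both early ones, as in 23.9% of all 9242 such probes. Probe 34330_1 read 1.041, 0.816, 0.774 and 0.355 on days 1 to 4, and probe 34352_1 read 0.808, 0.781, 0.386 and 0.305. Probe 27989_1 read 0.658, 0.430, 0.105 and 0.167, and probe 35041_1 read 0.470, 0.513, 0.312 and 0.155. Probe 34983_1 was the lowest and crossed 0, at 0.318, 0.290, -0.237 and -0.114. Of the probes with 3 values, 23866_1 read 0.654, 1.113 and 0.229 on days 1, 2 and 4, and 17476_1 read 0.651, 0.639 and 0.089 on days 1, 3 and 4. Probe 34952_1 had early values alone (0.486 and 0.430), 24293_1 and 25180_1 had a day 4 value alone (0.220 and 0.317), and 2 of the 12 probes had none. With the probes measured on all 4 arrays alone, the gene read 0.66, 0.57, 0.27 and 0.17, with the same order of early and late days.

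CD79A, the partner of CD79B, did not share these values. Its 3 probes averaged -0.18, -0.18 and -0.042 on days 1, 3 and 4, with no day 2 value, and a mean of -0.13 ± 0.080 (SD, 3 arrays; limma adjusted p = 0.698). None of its probes had values on all 4 arrays.

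CD22, the sialic-acid-binding inhibitory co-receptor of the B cell receptor, had a low day 1 value alone. It read -0.47, 0.072, 0.14 and 0.031 on days 1 to 4, and its early and late values overlapped. The difference of the late from the early days was 0.28 ± 0.24 (SE; limma adjusted p = 0.506), and taken from probe 17473_1 alone it was -0.095. It ran from 0.011 without the day 1 array to 0.56 without the day 2 array. Its probes differed on day 2 in particular, where 31957_1 read 1.145 and 30699_1 read -0.421. Probe 30699_1 lay below 0 early and above it late, at -0.748, -0.421, 0.350 and 0.510, and 29836_1 read -0.590, -0.330, 0.052 and -0.115. Probe 31957_1 read -0.575, 1.145, 0.240 and -0.294, and 17473_1 read 0.019, 0.394, 0.146 and 0.077. Probe 27983_1 read -0.427, -0.307 and 0.139 on days 2 to 4, 24387_1 had late values alone (0.332 and -0.130), and 25101_1 had none.

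CR2, the complement receptor that binds C3d-coated antigen, was lower in induced cells early and higher late. It read -0.27, -0.27, 0.16 and 0.19 on days 1 to 4, with no overlap. Late minus early was 0.44 ± 0.17 (SE; unadjusted p = 0.0404, limma adjusted p = 0.232), with a 95% interval from 0.028 to 0.86. Leaving out an array moved it only between 0.43 and 0.46. Late minus early was above 0 for 6 of 7 probes with early and late values, against 54.7% of all such probes. It was below 0 for 33249_1, which read 0.504, 0.110 and 0.161 on days 1, 3 and 4. Among the 4 probes with every value, 17364_1 read -0.544, -0.298, 0.081 and 0.099 and 19282_1 read -0.022, -0.406, 0.874 and 0.441, both with the late days higher. The early and late values overlapped in 35090_1 (-0.670, -0.134, -0.287 and 0.147) and in 27987_1 (0.133, -0.246, 0.027 and -0.018). On days 1, 3 and 4, 32259_1 read -0.809, -0.220 and 0.055 and 35207_1 read -0.482, 0.135 and 0.222. Probe 28383_1 had late values alone (-0.119 and 0.412), 25237_1 a day 3 value alone (0.821), and 24318_1 had none.

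MS4A1, the target of anti-CD20 antibodies, had small values throughout. It read -0.099, -0.36, 0.034 and 0.13 on days 1 to 4, and the late values lay above the early ones. For MS4A1, late minus early was 0.31 ± 0.19 (SE; limma adjusted p = 0.373), but with the 2 probes measured on all 4 arrays alone it was 0.070. It lay between 0.18 and 0.44 without an array in turn. Those probes were 17360_1, at 0.335, -0.187, 0.296 and 0.156, and 27832_1, at -0.002, -0.533, -0.409 and -0.150, and neither ordered the late days above the early ones. On days 1, 3 and 4, 24897_1 read 0.036, -0.058 and 0.533 and 17923_1 read -0.640, 0.308 and -0.392, and 32023_1 had a day 1 value of -0.225 and a day 4 value of 0.522. The day 2 value of the gene rests on 2 of its 5 probes.

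FCER2, the low-affinity IgE receptor, was read by 2 probes that opposed each other. The gene read 0.035, -0.38, 0.13 and -0.045 on days 1 to 4, and its early and late values overlapped. Probe 17521_1 read -0.159, -1.231, 0.379 and 0.016, whereas probe 35220_1 read 0.229, 0.469, -0.122 and -0.106. The early days were the lower ones in the first probe and the higher ones in the second. Late minus early of the gene was 0.21 ± 0.21 (SE; limma adjusted p = 0.584). It was 0.0068 without the day 2 array, 0.42 without the day 1 array and 0.89 with probe 17521_1 alone.

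**Figure D2:**
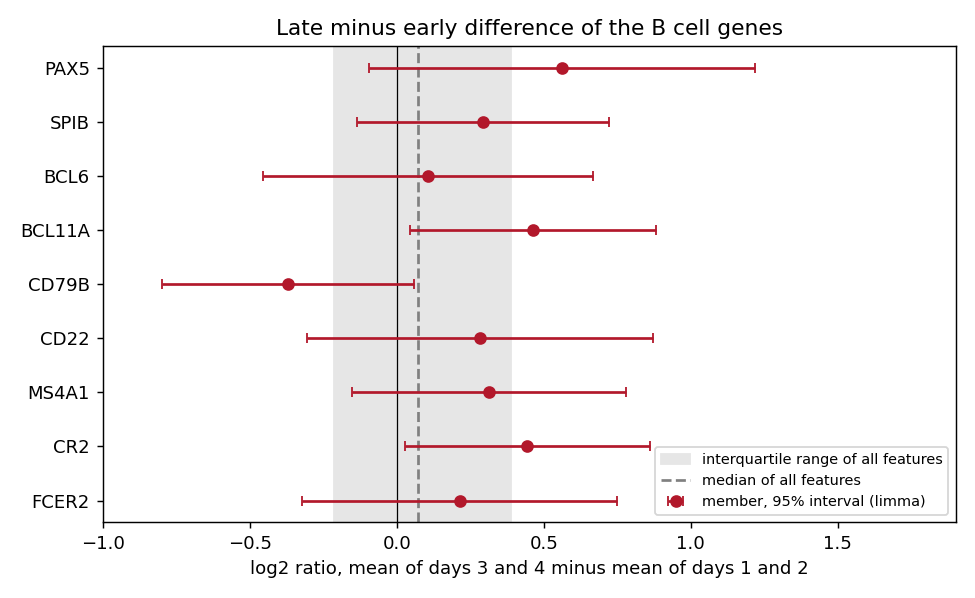
Late minus early difference of the log2 ratio (x axis) for each of the 9 genes (rows), with the 95% limma interval, the median of all 7713 features (dashed) and their interquartile range (grey). The 8 genes other than CD79B lie above 0, PAX5, BCL11A and CR2 lie above the grey band and CD79B below it, and only the intervals of BCL11A and CR2 leave out 0.

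Set side by side, late minus early was above 0 for 8 of the 9 genes, with a median of 0.29. It was above 0 for 56.5% of all features, with a median of 0.074. Both late values lay above both early values in 5 of the 9 genes, against 32.1% of features with 4 values, and below them in 1 of the 9, CD79B, against 22.4%. A late mean above 0 with an early mean below 0 was found for 6 of the 9 genes and for 30.5% of features. SPIB and BCL6 were the genes with both means below 0 (27.8% of features). At the level of probes, 14 of 29 member probes with values on all arrays had both late values above both early ones, against 29.0% of all such probes. In 6 of 29 they lay below, against 23.9% of all such probes, 5 of CD79B and 1 of FCER2.

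On the mean over the 4 days, 8 of the 9 genes lay below 0, as did 56.0% of features, and each by less than its own spread between arrays. The means ran from -0.18 ± 0.27 for BCL11A to -0.048 ± 0.26 for CR2 (SD, 4 arrays). PAX5 averaged -0.078 ± 0.43, SPIB -0.16 ± 0.18, BCL6 -0.15 ± 0.22, CD22 -0.059 ± 0.28, MS4A1 -0.073 ± 0.21 and FCER2 -0.066 ± 0.22. Their limma adjusted p-values lay between 0.606 (BCL11A) and 0.899 (CR2). For 6 of the 8 these means average a late mean above 0 and an early mean below 0, and do not describe a single day. Leaving out an array turned the sign of 5 of them, PAX5, CD22, CR2, MS4A1 and FCER2, in at least 1 case each, and the other 3 ranged from -0.27 to -0.099 (BCL11A), -0.23 to -0.10 (SPIB) and -0.22 to -0.056 (BCL6). 

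Ratios of 2-fold or more were few and scattered over probes. On day 1, 1 of 41 member probes with a value was at least 2-fold lower (PAX5 34096_1), against 2.86% of all probes, and 1 was at least 2-fold higher (CD79B 34330_1), against 2.06%. On day 2, 3 of 39 were lower (PAX5 31153_1, BCL11A 30836_1 and FCER2 17521_1), against 3.89%, and 3 were higher (PAX5 32923_1, CD22 31957_1 and CD79B 23866_1), against 2.65%. On days 3 and 4 no member probe reached 2-fold in either direction, against 0.554% lower and 0.812% higher on day 3 and 0.613% lower and 1.43% higher on day 4.

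The B cell genes had more missing values than the table as a whole on each array. Of the 66 probes, those without a value on days 1 to 4 numbered 25, 27, 12 and 9, or 37.9%, 40.9%, 18.2% and 13.6%. For all probes the shares were 25.3%, 32.3%, 11.2% and 9.01%. In all, 29 of the 66 probes had values on every array (60.6% of all probes did), 7 had none (5.21% of all probes had none), and 12 had 1 or 2. BCL11A lacked 6 of 12 probes on day 1 and 5 on day 2, but 1 on each late day. CR2, with 10 probes, lacked 3, 6, 1 and 2 on days 1 to 4. CD79B did not share that order, lacking 4, 5, 6 and 3 of its 12 probes. PAX5 lacked 3 of 7 on day 1 alone, and FCER2 lacked none. The sources used here do not say what a missing value stands for, and the part of missing values and of the wider early arrays in the early deficit was not tested.

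**Figure D3:**
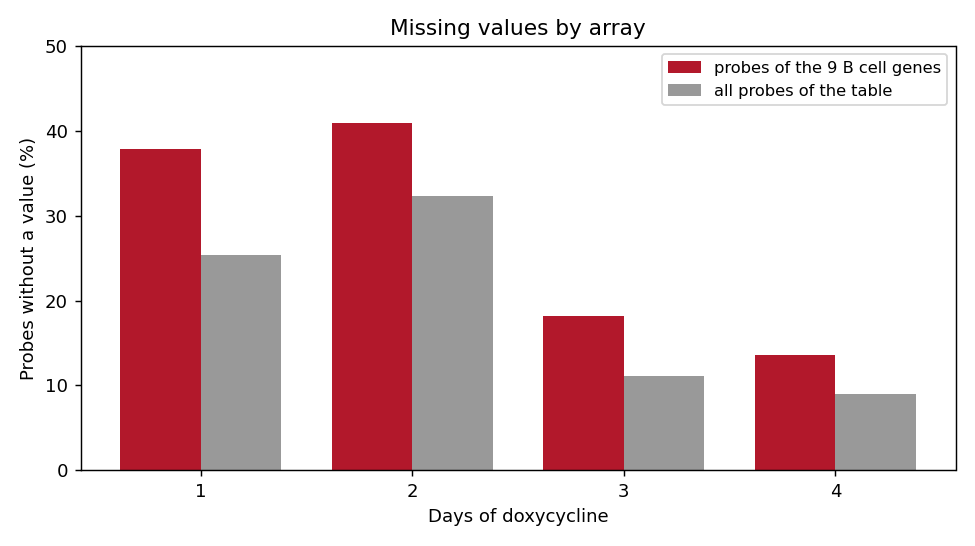
Share of probes without a value (y axis, percent) on the array of each day (x axis), for the 66 probes of the 9 B cell genes (red) and for all 15246 probes (grey). The red bar is the higher one on each day, and both are higher on days 1 and 2 than on days 3 and 4.

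Other genes of the B cell were read from lists of surface, signalling and transcription factor genes. No gene of any list passed over all features in either comparison (0 called with limma). On the mean, 6 of 30 surface genes, 4 of 25 signalling genes, 3 of 25 transcription factors, 5 of 13 plasma cell regulators, 4 of 15 T cell markers and 0 of 7 myeloid markers reached an unadjusted p under 0.05, as did 12.5% of all features. Of 30 further B cell surface and co-receptor genes, 20 had a late minus early difference above 0 (56.5% of all features), with a median of 0.26, and 8 reached an unadjusted p under 0.05 (20.0% of all features). CCR7, the homing receptor for lymph nodes, read -0.21, -0.80, 0.33 and 0.43 on days 1 to 4, and the activation receptor SLAMF1 read -0.64, -0.66, -0.036 and 0.49. Their late minus early differences were 0.89 ± 0.25 and 0.88 ± 0.23 (SE; limma adjusted p = 0.182 and 0.180). CD84, a relative of SLAMF1, read -0.56, -0.59, 0.003 and 0.13. In 16 of the 28 surface genes with 4 values both late values lay above both early ones, as in 32.1% of features with 4 values. CD74, the invariant chain of MHC class II, took the opposite course, at -0.22, -0.52, -1.02 and -0.71. CD53, a leukocyte tetraspanin, was above 0 on each array, with a mean of 0.47 ± 0.11 (SD), as was CD70, the ligand of CD27, at 0.67 ± 0.59.

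Genes of B cell receptor signalling had no common direction. Of 25, 15 had late minus early above 0 (56.5% of all features), with a median of 0.058, and 0 reached an unadjusted p under 0.05 (20.0%). PTPN6 (SHP-1), the phosphatase that CD22 recruits, was above 0 on every array at 0.58, 0.59, 0.45 and 0.44, with a mean of 0.51 ± 0.082 (SD; limma adjusted p = 0.150). NFATC1 averaged 0.34 ± 0.27 and IFITM1, an interferon-induced membrane protein, 0.39 ± 0.14. The NFATC1 probes differed: 30676_1 read 0.468, 1.889, 0.377 and 0.557, 31828_1 read 0.313, 0.434, 0.259 and 0.144, and 17102_1 read 0.074, -0.104, 0.055 and -0.337. PTPRC (CD45), the phosphatase that primes the receptor's kinases, read -0.33, -0.45, -0.12 and 0.22, and the adaptor GRB2 read 0.36, -0.22, -0.50 and -0.36. On day 4 the PTPRC probes 34399_1, 17597_1 and 29958_1 read 1.774, 1.038 and 0.387. The other PTPRC probes with a value lay below 0 that day, from -0.556 to -0.007. The inositol phosphatase INPP5D (SHIP-1) read 0.053, -0.71, 0.21 and 0.062.

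Of 25 further B cell transcription factors, 14 had late minus early above 0, with a median of 0.070, and 2 reached an unadjusted p under 0.05. Both counts were near or below the shares over all features, 56.5% and 20.0%. ID2, an inhibitor of E proteins, read -0.29, -0.60, 0.13 and 0.56 (late minus early 0.79 ± 0.23, SE; limma adjusted p = 0.182). For its relative ID3 the difference was 1.89 ± 0.82 and rested on a day 2 value of -2.79, the average of -5.628 for probe 17817_1 and 0.055 for probe 28340_1. The averages of the E protein TCF4 (4 probes) and of ETS1 (1 probe) were below 0 on every array, with means of -0.33 ± 0.15 and -0.29 ± 0.083 (SD). The TCF4 probes opposed each other. Probe 31376_1 read -0.623, -0.895, 0.194 and 0.161 on days 1 to 4, and 34391_1 read -0.806, 0.281 and 0.148 on days 1, 3 and 4. Probe 37370_1 read 0.196, -0.050, -0.502 and -0.392, and 38243_1 read 0.137, -0.678, -1.096 and -0.762. RUNX1 read 0.16, 0.70, -0.062 and -0.13 on days 1 to 4.

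Most regulators and products of plasma cells had lower ratios late than early. Of 13 genes, 10 had late minus early below 0 (43.5% of all features), with a median of -0.43, and 4 reached an unadjusted p under 0.05 (20.0%). The list medians were 0.52, 0.68, 0.24 and 0.096 on days 1 to 4. PRDM1, the repressor of PAX5, read 0.46, 0.89, -0.063 and -0.096, with a late minus early difference of -0.76 ± 0.21 (SE; limma adjusted p = 0.182). The probes of PRDM1 differed: 29483_1 read 1.111, 0.894, 0.068 and -0.051, while 35211_1 read -0.194 on day 1, -0.162 on day 3 and 0.021 on day 4. Probe 16371_1 had late values alone (-0.096 and -0.259) and entered the late averages with no early counterpart. The day 2 value of PRDM1 is that of 29483_1 alone. XBP1, the transcription factor of the secretory programme, read 0.85, 0.70, 0.24 and -0.20, a difference of -0.76 ± 0.22. ELL2, an elongation factor for immunoglobulin transcripts, read 0.32, 0.023, -0.60 and -0.585. SDC1 (CD138) read 1.15, 0.70, 0.35 and 0.16, and CD38 stayed between 0.56 and 0.76. Of the SDC1 probes, 26979_1 read 1.351, 0.696, 0.335 and 0.130 and 17780_1 read 0.952, 0.704, 0.741 and 0.423. The SDC1 probe 17577_1 had late values alone (-0.035 and -0.085), with no early counterpart. The joining chain JCHAIN read 1.75 on day 1, where 1 of its 3 probes with a value read 3.902 (23859_1), and between 0.73 and 0.79 on the other days. Probe 23859_1 had no day 2 value and read 0.182 and 0.015 late. The 2 JCHAIN probes with values on every array were higher late, against the fall of the average. Of these, 19370_1 read 0.875, 1.085, 1.271 and 1.318, and 34350_1 read 0.476, 0.366, 0.522 and 0.524. The ratios of the B cell genes and of PRDM1 and XBP1 come from the same 4 arrays and share their controls, so they are given side by side.

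**Figure D4:**
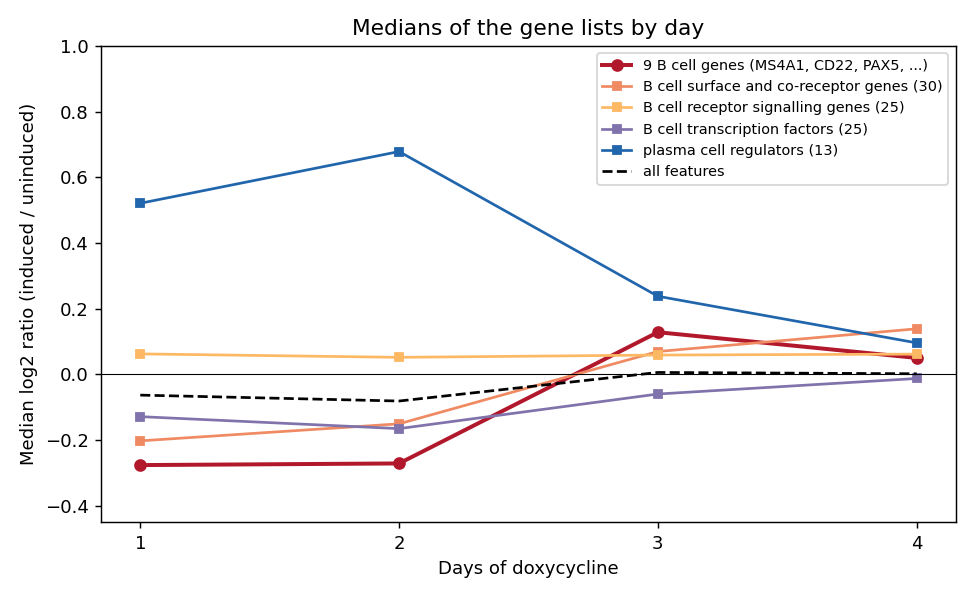
Median log2 ratio (y axis) by day of doxycycline (x axis) for the 9 B cell genes, the 4 further lists (number of genes in brackets) and all features (dashed). Of the lists drawn, the 9 genes lie lowest on days 1 and 2 at -0.28 and -0.27, and the plasma cell regulators lie highest on days 1 to 3.

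Markers of other blood cells, whose levels cannot be read from ratios either, were also measured. Of 15 T cell markers, 9 had late minus early above 0, with a median of 0.045, and of 7 myeloid markers 5 did, with a median of 0.50. Over all features 56.5% did, with a median of 0.074. An unadjusted p under 0.05 was reached by 2 T cell markers and 1 myeloid marker, against 20.0% of all features. Of 13 T cell markers with 4 values, both late values lay above both early ones in 4 and below them in 4, CD3G among the latter. Of 4 such myeloid markers they lay above in 2 and below in 0. Over features with 4 values the shares were 32.1% and 22.4%. CD3D read 0.089, -0.061, 0.615 and 0.81, GZMA -1.36, -0.44, 0.22 and 0.78, and FCGR1A -0.86, -0.31, 0.25 and 0.215. A lower early and higher late average therefore also occurred in some genes of other lineages, and their part in the values of the B cell genes was not tested. These late averages include probes that lack an early value. Each of the 3 genes had 1 probe with values on every array. On days 3 and 4 these read 0.154 and 0.248 (CD3D 16869_1), 0.096 and -0.038 (GZMA 17223_1) and 0.057 and -0.071 (FCGR1A 17331_1). Of the T cell genes on the mean, CD5, which some B cells also carry, was below 0 on every array at -0.42 ± 0.22 and CD4 above 0 at 0.36 ± 0.21. CD7 read 0.71, 0.084, -0.0065 and -0.0645 on days 1 to 4. CD14 averaged 0.37 ± 0.46 and ITGAM 0.21 ± 0.23.

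The named genes whose 4 ratios came closest to each B cell gene were sought among 3768 other genes with values on all arrays, by the root mean square difference over the 4 days. For CD79B these were UBE2V1 (0.040), UQCRC2 (0.064) and TRAM1 (0.074), the last reading 0.74, 0.61, 0.31 and 0.29. For BCL11A they were CARMIL2 (0.029), SPARC (0.033) and KLRC4 (0.044), and for CR2 DENND3 (0.037), ABTB1 (0.044) and DOCK8 (0.045). PAX5 was closest to DCAF1 (0.042), SERTAD2 (0.046) and CIDEA (0.051), SPIB to FMO1 (0.030), PRKACB (0.033) and SORL1 (0.037), and BCL6 to PGGHG (0.034), CHRNB1 (0.049) and NPTN (0.051). CD22 was closest to FYB1 (0.039), ZNF384 (0.047) and MYADM (0.055), MS4A1 to PRPSAP2 (0.024), CRTAC1 (0.028) and BNIP3 (0.038), and FCER2 to AP1AR (0.042), ARHGAP11A (0.048) and CMKLR2 (0.050). None of the 9 genes was among the 3 closest of another.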

How the data were processed

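The authors deposited 1 log ratio per probe and array, in a table of 15246 probes and 4 arrays, which is read here as log2 of Cy5 (induced) over Cy3 (uninduced). Per the labels' protocols, each labelling started from 50 µg of total RNA. The sources used here do not give the background correction, normalization, spot filter or log base, nor what a missing value stands for. Spot intensities were not used here, so dim spots were not filtered further, and the number of arrays limits the precision.

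A single gene symbol was annotated for 10169 probes, several for 4 and none for 5073, and 10128 probes matched RefSeq (GRCh38.p14) by Entrez identifier. Probes of a symbol were averaged per array, and other probes stayed features of their own. Features with at least 3 values were fitted with limma 3.58.1 in R 4.3.3 (lmFit, eBayes), and the fits were tested on simulated data. In that simulation a feature had the same spread on every array, so the wider early arrays of these data were not covered.

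The genes, lists and tests were chosen with earlier results of these data known. Named were the 9 genes, any list gene called, the 3 list genes with the largest mean and the 3 with the largest late minus early difference, and the 3 genes of closest pattern. CD79A and the PRDM1 probes were added after their values were seen. Alternatives changed the probe summary, scale, centring, weights, missing-value filter, time model or arrays used.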

Additional observations from a re-analysis of the deposited data

Results flagged for a closer look

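Of 38 sets of 4 array values (9 genes and 29 of their probes), 1 had a day that stood far from the other 3 by Dixon's criterion, and chance gives about 1 in 20. PAX5 probe 34096_1 read -1.516 on day 1, against 0.337, 0.175 and 0.091 on days 2 to 4. The other 3 PAX5 probes with a day 1 value lay between -0.697 and -0.254 that day.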

How the results depend on the processing

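No B cell gene passed on the mean under any alternative, and on late minus early 1 did under 1 of them, PAX5 without the day 2 array. Features called on the mean numbered 26, against 3 with arrays scaled to the same spread, 291 with array weights, 42 with values required on all 4 arrays, and 3 to 5 without an array. Features called on late minus early numbered 5, against 1 with probes measured on all arrays, 2 with arrays centred on the median, 0 with values on all 4 arrays (1128 at an unadjusted p under 0.05), 0 for the slope on day (1211) and 0 to 1301 without an array. It was 1295 without day 1 and 1301 without day 2, where the residual comes from days 3 and 4 alone, and 0 without day 3 (356) or day 4 (313). The sign of the mean turned for MS4A1 (0.15) and CD22 (0.16) when a probe missing fewest values stood for the gene. Several probes tied, and the first listed was taken, 17360_1 for MS4A1 and 17473_1 for CD22. The tied MS4A1 probe 27832_1 had a mean of -0.27. Of the tied CD22 probes, 29836_1 and 30699_1 had means of -0.25 and -0.077, and 31957_1 had 0.13. With array weights it turned for MS4A1 (0.025), CD22 (0.054), PAX5 (0.11), FCER2 (0.026) and CR2 (0.10). The weights of days 1 to 4 were 0.41, 0.45, 3.02 and 1.80, so the weighted mean leaned on days 3 and 4. Without an array in turn the means ran from -0.14 to 0.023 for MS4A1, -0.12 to 0.080 for CD22, -0.18 to 0.13 for PAX5, -0.13 to 0.040 for FCER2, -0.13 to 0.026 for CR2, -0.22 to -0.056 for BCL6, -0.27 to -0.099 for BCL11A, -0.23 to -0.10 for SPIB, and 0.38 to 0.53 for CD79B. Late minus early turned for CD22 with probe 17473_1 (-0.095). Of the tied CD22 probes, 31957_1 gave -0.31, 29836_1 gave 0.43 and 30699_1 gave 1.01. Without an array, late minus early ran from -0.13 to 0.35 for BCL6, 0.22 to 0.90 for PAX5, 0.011 to 0.56 for CD22, 0.0068 to 0.42 for FCER2 and 0.18 to 0.44 for MS4A1. With scaled arrays it was -0.20 for CD79B and 0.045 for BCL6. Each array already pairs induced with uninduced cells, so the mean ratio against 0 is itself a paired comparison. The early and late arrays were compared without pairing.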
